A study of Mus musculus with 6 samples.

Results

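The axon guidance ligands and receptors measured here were 66 of the 18194 genes on the arrays. They were chosen by symbol, with earlier results of these data known. They comprise the semaphorins of classes 3 to 7 (20 genes), the plexins and neuropilins (11) and the Eph receptors (13). The others are the ephrins (8), the Slits and Robos (6) and the netrins with the Unc5 receptors and Dcc (8). Expression was read on 6 Affymetrix mouse arrays from cultures of so-called NSP cells, usually read as neural stem and progenitor cells. They came from dissociated brains of E12.5 mouse embryos that were raised to confluence on a coated surface and then replated. A lentivirus next brought in a hairpin RNA for gene silencing (shRNA), either the control CTL shRNA (3 samples) or REST shRNA, which targets REST (3 samples). RNA was taken at 6 days after infection. Every sample was therefore an infected primary culture of mixed brain cells, with no untreated group. Strain, sex and hairpin sequence are not named in the labels, nor is it said that replicates were separate cultures. The spread behind each p-value is thus that among these samples and may be technical.

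The transcription factor REST recognises RE1 sites in DNA and keeps many neuronal genes repressed in cells that are not neurons. Axon guidance molecules steer growing axons and migrating cells. Semaphorins signal through plexins, with neuropilins as co-receptors for most class 3 members. Ephrins on one cell bind Eph receptor tyrosine kinases on another and can signal in both directions. Slits repel through Robo receptors, and netrins attract through Dcc or repel through Unc5 receptors. Many of these molecules are made by neural progenitors and glia as well as by neurons, where they also act in cell sorting, migration and proliferation.

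Each value is a log2 signal of a probe set, meaning several short probes against 1 transcript, and a gene is represented by its brightest probe set. A difference is always the mean of the REST shRNA arrays minus that of the control arrays, on the log2 scale. The highest signal among 27 probe sets for bacterial genes, 3.24, served as a background reference. Of the 66 genes, 56 had a mean above it, 84.8%, beside 76.0% of all genes. The 10 at or below it were Sema3c, Sema3d, Sema3g, Epha2, Epha6, Epha8, Robo2, Robo3, Slit3 and Unc5d, and differences of such genes are understated. In bulk samples, fewer cells of a type and less RNA per cell cannot be told apart.

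Rest itself, the target of the hairpin, read 8.92, 8.75 and 8.90 in the control arrays and 8.63, 7.70 and 8.20 in the REST shRNA arrays. Every REST shRNA array lay below every control array, at 62.5% of the control level on average (log2 difference -0.68, 95% CI -1.27 to -0.09), although the adjusted p over all genes was 1 in limma. The difference was -0.44 without REST shRNA array 2. All 12 progenitor markers checked, such as Nes and Sox2, read above the background reference, as did all 14 neuron markers, all 9 astrocyte markers and 8 of 9 oligodendrocyte markers. Of 8 endothelial markers 7 lay at or below it, Pecam1 and Cdh5 among them, and of 8 microglial markers 5 did, including Aif1 and P2ry12. The mean log2 level of the neuron markers ran from 7.36 to 7.75 in control and from 8.05 to 8.60 in REST shRNA, so the groups did not overlap, with 11 of 14 members positive. Their summed linear signal ran from 4860 to 6018 and from 6275 to 9474. The 3 negative members were Elavl4, Dcx and Map2, at -0.21, -0.20 and -0.10. The astrocyte list read 9.26 to 9.61 in control and 9.63, 7.67 and 9.47 in REST shRNA arrays 1, 2 and 3. Its summed linear signals were 10759 to 12831 and 4313 to 13692, so array 2 stood apart. All 9 astrocyte members had a negative mean difference. Their median was -0.03, -1.22 and 0.27 in the pairs of arrays numbered 1, 2 and 3. The progenitor list did not overlap between groups either, at 10.10 to 10.15 in control and 9.85 to 10.07 in REST shRNA (summed linear signals of 25135 to 26376 and 20950 to 24359), with 10 of 12 members negative. Neural crest markers read 3.89 to 4.07 and 4.19 to 4.78, with all 7 measured members positive and Foxd3, Tfap2a and Tfap2b under the reference. The part of these cell types in the results on guidance genes was not tested. The Gapdh 3' minus 5' signal, a sign of RNA quality, overlapped between groups, at 1.72 to 2.87 and 1.93 to 2.25.

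No guidance gene passed an adjusted p of 0.05 in the limma fit over all genes, and neither did any other gene (0% called). The smallest adjusted p among the 66 was 0.884, for Plxna2, and every other one was 1. At an unadjusted p under 0.05, 3 guidance genes were higher (4.55%, beside 1.78% of all genes) and 2 were lower (3.03%, beside 1.07%). Plxna2, Efnb2 and Sema3c were the higher ones, and Epha5 and Robo1 the lower ones. The 2 groups did not overlap for 5 higher genes (7.58%, beside 4.91% of all genes) and 2 lower ones (3.03%, beside 2.65%). These shares rest on a handful of genes. Without REST shRNA array 2 the unadjusted count was 10 higher, and without control array 1 or REST shRNA array 1 it was 1 higher (beside 0.962% and 3.53% of all genes). In the fit without REST shRNA array 2, 4.22% of all genes were higher, and 17 guidance genes had groups apart and higher (14.1% of all genes). Without control array 1 or control array 2 the unadjusted count was 0 lower (beside 0.550% and 0.912% of all genes), and without REST shRNA array 3 it was 4 lower (beside 1.31%). Plxna2 was among the higher genes in each of these fits. With the replicate number as a block in the limma fit, no gene passed the adjusted threshold either, and 3 guidance genes were higher (Plxna2, Sema3c and Sema4f, beside 2.24% of all genes) and 3 lower (Epha5, Robo1 and Sema3a, beside 1.42%) at an unadjusted p under 0.05.

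Over all 66 genes 38 differences were positive and 28 negative, or 57.6% positive beside 57.2% of all genes, and the median was 0.06, beside 0.04 over all genes. The median size of a difference, regardless of sign, was 0.22 for the guidance genes and 0.14 for all genes. For 40 of the 66 the 95% interval of the difference lay inside -1 to 1, beside 79.3% of all genes, so that a change of 2-fold or more lay outside the interval. For the other 26 the interval reached past 2-fold, so a change of that size was not resolved with 3 arrays a group. The 34 ligands had a median of 0.16 with 23 positive, and the 32 receptors a median of -0.03 with 15 positive. By family the medians were 0.05 for semaphorins, -0.07 for plexins and neuropilins, -0.03 for Eph receptors, 0.33 for ephrins, -0.11 for Slits and Robos, and 0.06 for netrins with their receptors.

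**Figure D1:**
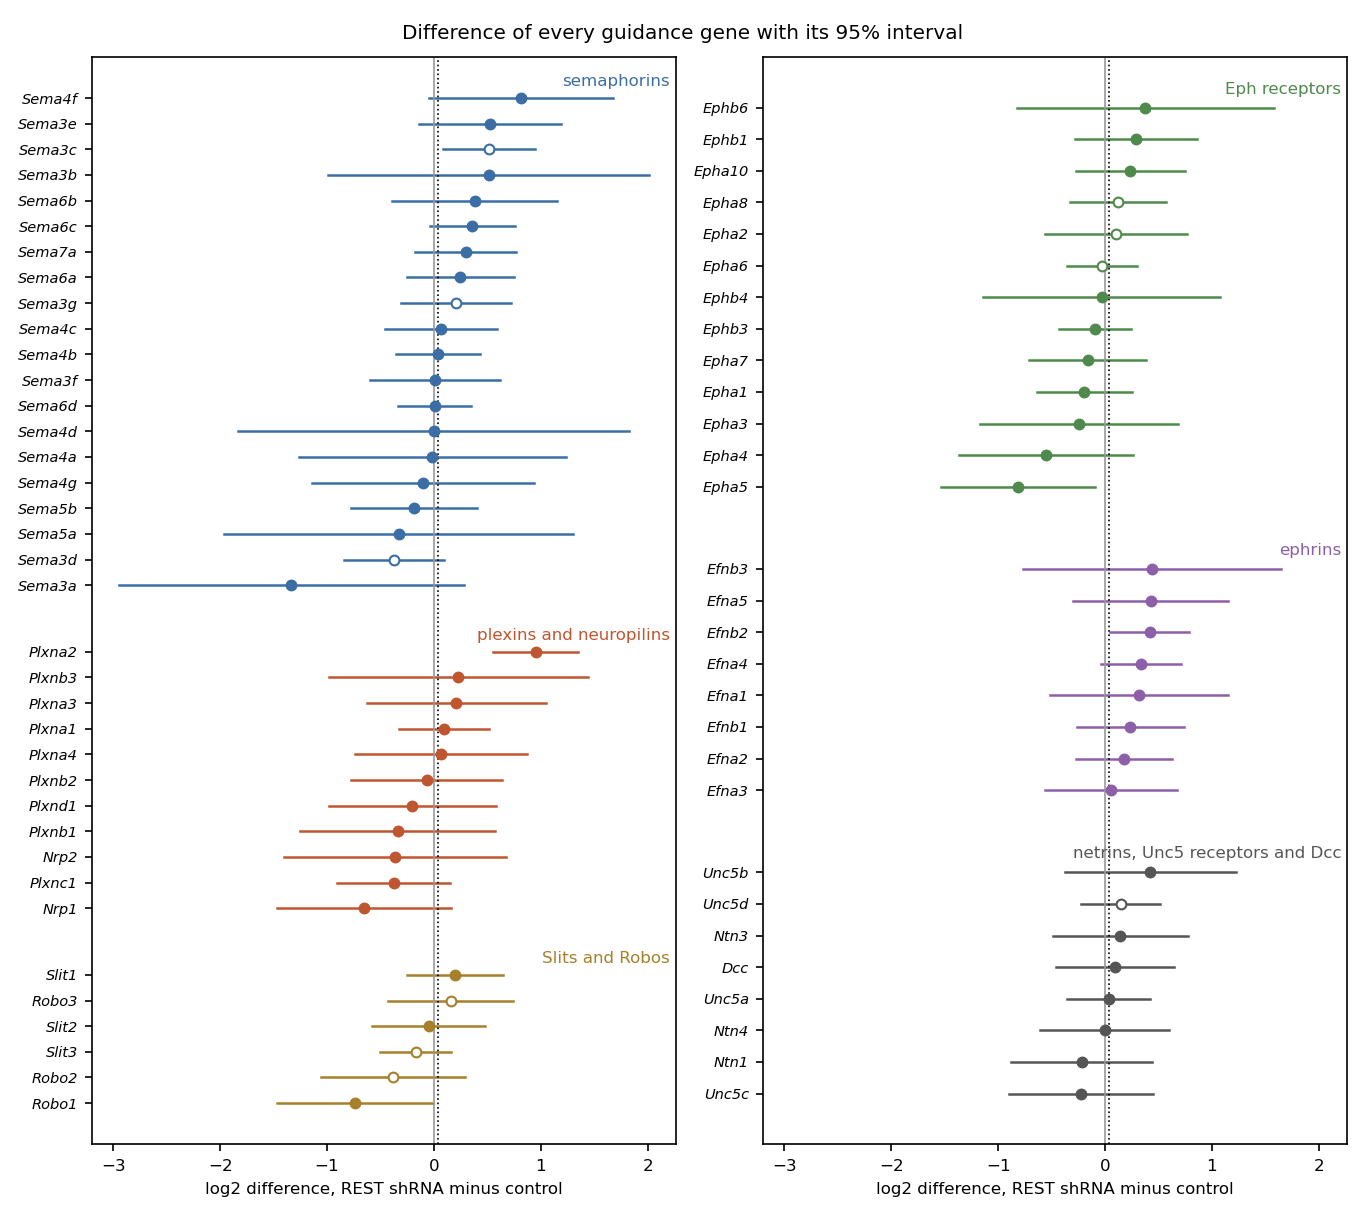
Log2 difference (REST shRNA minus control, x axis) of each of the 66 guidance genes, grouped by family, with its 95% interval from the limma fit. Open circles mark genes whose mean is not above the bacterial reference, the grey line is 0 and the dotted line is the median over all genes. Plxna2 at 0.95 has an interval well clear of 0, and all 8 ephrins lie to the right of 0.

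Among the receptors for semaphorins, Plxna2 showed the clearest difference of the set. Plexin A2 is a receptor that, with neuropilins, transmits class 3 semaphorin signals and also binds class 6 semaphorins directly. Its signal was 7.04, 6.86 and 6.98 in control and 7.74, 8.16 and 7.83 in REST shRNA. Every REST shRNA array lay above every control array, with a gap many times the spread of the control arrays. The level was 1.93-fold that of control (log2 difference 0.95 ± 0.17 SE, 95% CI 0.55 to 1.35), with an unadjusted p of 0.000869, the 17th smallest of 18194, and an adjusted p of 0.884 in limma. The difference was 0.70, 1.30 and 0.85 in the pairs of arrays numbered 1, 2 and 3. In all 16 alternative settings it lay between 0.66 and 1.08 with an unadjusted p under 0.05. Its other 3 probe sets gave 0.57, 0.57 and 0.55, and in each of the 4 the groups did not overlap. The probe set used was the brightest by the mean of all 6 arrays, at 7.43 beside 7.41 for the next. In control alone it was not, at 6.96 beside 7.13, so its choice rested on the REST shRNA arrays. That next probe set read 148% of control, with an unadjusted p of 0.0437 in a limma fit over all probe sets. The size of 0.95 and its rank therefore depend on the probe set.

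Differences of the sister plexins of class A were smaller. Plxna1, Plxna3 and Plxna4 differed by 0.10 ± 0.18 (SE, log2), 0.21 ± 0.35 and 0.07 ± 0.34. For Plxna1 the 95% interval, -0.32 to 0.52, lay below the lower bound for Plxna2, while those of Plxna3 and Plxna4 reached up to 1.04 and 0.87 and so included values like that of Plxna2. Plxna3 and Plxna4 were also higher at an unadjusted p under 0.05 without REST shRNA array 2. Whether the plexins differed from one another was not tested. Class B plexins, among them receptors for class 4 semaphorins, differed by -0.34 ± 0.38 for Plxnb1, -0.07 ± 0.30 for Plxnb2 and 0.23 ± 0.51 for Plxnb3. Plxnb1 read 9.71, 9.48 and 9.58 in control and 9.76, 8.33 and 9.66 in REST shRNA, so its negative mean came from array 2 alone. Plxnd1, a receptor for Sema3e, had the same pattern, with pair differences of 0.21, -1.07 and 0.25. Plxnc1, the receptor for Sema7a, read 0.38 ± 0.22 lower on the log2 scale, and all of its 6 probe sets were negative, from -0.44 to -0.24.

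Both neuropilins, the ligand-binding co-receptors for class 3 semaphorins, had negative differences. Nrp1, which binds Sema3a and also vascular endothelial growth factor, read 7.42, 7.03 and 6.72 in control and 6.83, 5.70 and 6.67 in REST shRNA. The groups overlapped in this probe set, and the difference was -0.65 (95% CI -1.47 to 0.16, unadjusted p = 0.0976, adjusted p = 1 in limma). The next brightest probe sets of Nrp1, at -0.80 and -0.76, had groups that did not overlap. Without REST shRNA array 2 the difference of the brightest one was -0.30. Nrp2, the preferred partner of Sema3f, differed by -0.36 ± 0.43 (SE, log2), with pair differences of -0.04, -1.64 and 0.59, and a dimmer probe set had the opposite sign at 0.24. In array 2 of REST shRNA, 4 of the 11 genes of this family lay more than 1 log2 unit from their control mean. Nrp1, Nrp2 and Plxnb1 lay below it and Plxna2 above it. The astrocyte, progenitor and oligodendrocyte lists also had their lowest level in that array, at 7.67, 9.85 and 8.49. The family median of -0.07 turned positive without REST shRNA array 2, at 0.12, and without control array 2, at 0.05.

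Of the class 3 semaphorins, which are secreted, Sema3c read higher and Sema3a lower. Sema3c read 2.35, 2.52 and 2.86 in control and 3.22, 3.05 and 3.01 in REST shRNA. Every REST shRNA array was above every control array, but all 6 values lay under the bacterial reference, so this difference of 0.51 (95% CI 0.08 to 0.94, unadjusted p = 0.0260, adjusted p = 1 in limma) is of a signal near background. Its other probe set, also under the reference, gave 0.78. The unadjusted p was above 0.05 without control array 1 or 2 or REST shRNA array 1. Sema3a, a repellent ligand for neuropilin 1, had the lowest difference of all 66 genes and was singled out after its values were seen. It read 7.18, 7.43 and 6.48 in control and 5.88, 6.999 and 4.21 in REST shRNA. The groups overlapped, through array 2 of REST shRNA. The difference was -1.33 ± 0.68 (SE, log2), which is 39.7% of the control level, with an interval of -2.95 to 0.28 and an unadjusted p of 0.0909. It was lower in each pair, by -1.30, -0.43 and -2.27, and the unadjusted p was 0.0102 in the fit blocked on replicate number (adjusted p = 1 in limma). Its other probe sets gave -0.59 and -0.17, the first with pair differences of -0.97, -0.59 and -0.20. The difference of the brightest was -0.59 without REST shRNA array 3, -1.98 without array 2, and -0.69 when all its probe sets were averaged. In pair 3 the brightest probe set and the second one therefore differed by more than 2 log2 units. Sema3d, at or below background, also read lower in each pair, at -0.38 ± 0.20. Sema3b and Sema3e were positive at 0.51 ± 0.63 and 0.52 ± 0.28, and Sema3f and Sema3g read 0.01 ± 0.25 and 0.21 ± 0.22.

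The membrane-bound semaphorins lay on both sides of 0. Sema4f, a class 4 semaphorin, read 4.98, 5.31 and 5.10 in control and 5.80, 5.29 and 6.74 in REST shRNA. Arrays 1 and 3 of REST shRNA were above all controls, and array 2 was within them. The difference was 0.81 (95% CI -0.04 to 1.67, unadjusted p = 0.0595, adjusted p = 1 in limma), and its other probe set gave 1.07. In the blocked fit the unadjusted p was 0.0489, and the difference was 0.42 without REST shRNA array 3. Sema6c had groups that did not overlap, with 4.21, 4.30 and 4.18 in control and 4.60, 4.35 and 4.81 in REST shRNA, and a difference of 0.36 ± 0.17. A dimmer probe set of Sema6c had the opposite sign, at -0.13. Sema7a, which carries a lipid anchor, was higher in each pair at 0.30 ± 0.20. The bright Sema5b, Sema4c and Sema6d differed by -0.19 ± 0.25, 0.07 ± 0.22 and 0.01 ± 0.14, and the interval of Sema6d, -0.34 to 0.35, was among the narrowest of the set. Sema4d had a mean difference of 0.00 ± 0.77, made of pair differences of 0.00, -0.99 and 0.98. Sema4a at -0.01, Sema4g at -0.10 and Sema5a at -0.33 likewise had array 2 low, by more than 1 log2 unit under the control mean. Without that array the median of the 20 semaphorins was 0.34 in place of 0.05, and without REST shRNA array 3 it was -0.065.

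All 8 ephrins had a positive difference, from 0.05 to 0.44, with a median of 0.33. Efnb2, a transmembrane ephrin of progenitors and vessels, was the most regular of them. It read 6.98, 7.29 and 7.18 in control and 7.51, 7.49 and 7.70 in REST shRNA. All REST shRNA arrays were above all controls, and the difference was 0.42 ± 0.16 (SE, log2), or 1.34-fold (95% CI 0.05 to 0.79, unadjusted p = 0.0313, adjusted p = 1 in limma). In the blocked fit the unadjusted p was 0.0582. The other 3 probe sets gave 0.43, 0.39 and 0.51, and the groups did not overlap in 3 of the 4. Leaving out 1 array gave 0.33 to 0.49 for the brightest, and the unadjusted p was above 0.05 without control array 1 or 3 or REST shRNA array 1 or 3. Efna4, a lipid-anchored ephrin, read 3.41, 3.19 and 3.05 in control and 3.49, 3.52 and 3.65 in REST shRNA, close to background, with a difference of 0.34 ± 0.16. Efna5 and Efnb1 were higher in each pair too, at 0.43 ± 0.30 and 0.24 ± 0.21.

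The size of the ephrin shift depended on 1 array. Without REST shRNA array 3 the family median was 0.041, and against the control mean the family's median was 0.14, 0.04 and 0.60 in REST shRNA arrays 1, 2 and 3. Efnb3, a neuronal and midline ephrin, showed this spread most plainly, with 6.51, 6.40 and 6.84 in control and 7.47, 5.80 and 7.80 in REST shRNA. Efna1, Efna2 and Efna3 were below their number-matched control in pair 2 and above it in pair 3. In array 3 the neuron list also had its highest level, 8.60, and the oligodendrocyte list too, at 9.79 beside 8.78 to 9.24 in control, and the part of either in the ephrin values was not tested.

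Of the receptors for ephrins, Epha5 alone had an unadjusted p under 0.05 or groups apart. The 9 EphA receptors had a median of -0.16 with 6 negative, and the 4 EphB receptors a median of 0.13 with 2 negative, and neither class was tested as a whole. Epha5, a receptor for ephrin-A ligands in the forebrain, read 9.18, 9.13 and 9.54 in control and 8.74, 7.82 and 8.86 in REST shRNA. No REST shRNA array reached the lowest control. Its level was 57.0% of control (log2 difference -0.81 ± 0.30 SE, 95% CI -1.53 to -0.09, unadjusted p = 0.0327, adjusted p = 1 in limma), and the blocked fit gave an unadjusted p of 0.0123. All 4 probe sets were lower, with differences of -1.08 to -0.75, and the groups did not overlap in 2 of them. Without REST shRNA array 2 the difference was -0.48, and the unadjusted p was above 0.05 without any 1 of the control arrays.

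Epha4, which binds ephrins of both classes, read 7.70, 7.25 and 7.48 in control and 6.93, 6.26 and 7.60 in REST shRNA. Arrays 1 and 2 were below all controls and array 3 was within them, so the groups overlapped. The difference was -0.55 ± 0.34 (SE, log2), and each of 5 probe sets was negative, from -0.67 to -0.38. Without REST shRNA array 3 it was -0.89 (unadjusted p = 0.0168, adjusted p = 1 in limma), and without array 2 it was -0.22. Epha3 had 4 probe sets between -0.24 and -0.18, with pair differences of -0.57, -0.74 and 0.57 in the brightest. Among the other receptors Epha1, Epha7 and Ephb3 differed by -0.19 ± 0.19, -0.16 ± 0.23 and -0.10 ± 0.14. Ephb1, a bright signal, gave 0.29 ± 0.24, Epha10 gave 0.24 ± 0.21, and Ephb6, which lacks kinase activity, gave 0.38 ± 0.50 with 5.04 in array 3 against 3.49 to 3.52 in control. Ephb4 at -0.03 ± 0.46, and Epha2, Epha6 and Epha8 below background at 0.10, -0.03 and 0.12, complete the family.

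In the Slit system the receptor Robo1 read lower, and the ligands differed by 0.20 or less on the log2 scale. Robo1, the main receptor through which Slits repel axons, read 8.27, 8.59 and 7.79 in control and 8.02, 7.25 and 7.15 in REST shRNA. Array 1 of REST shRNA lay within the controls and the other 2 lay below them. The difference was -0.74 ± 0.31 (SE, log2), 60.0% of control (95% CI -1.47 to -0.01, unadjusted p = 0.0486, adjusted p = 1 in limma). A second probe set gave -0.70 with groups that did not overlap, and the dimmest, under the reference, gave -0.12. The unadjusted p of Robo1 was above 0.05 without control array 1 or 2 or REST shRNA array 2 or 3, with differences of -0.71, -0.55, -0.63 and -0.58. Robo2 read 2.69, 2.46 and 3.46 in control and 2.66, 2.26 and 2.54 in REST shRNA, all but 1 value under the reference, with a difference of -0.38 ± 0.28, or -0.09 without control array 3. Slit1 and Slit2 differed by 0.20 ± 0.19 and -0.05 ± 0.22. Slit3 lay below background, and its groups did not overlap although they differed by only -0.17 ± 0.14. Robo3, also below background, gave 0.16 ± 0.24, with a second probe set at -0.26.

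In the netrin system the median size of a difference was 0.14, regardless of sign. None of its 8 genes had an unadjusted p under 0.05 or groups apart, and for 7 of them the interval of the brightest probe set excluded a 2-fold change. The exception was Unc5b, a repulsive netrin receptor, with 6.85, 7.25 and 6.53 in control and 6.78, 7.95 and 7.17 in REST shRNA. Arrays 1 and 3 lay within the controls and array 2 above them, with pair differences of -0.07, 0.70 and 0.64 and a mean difference of 0.43 ± 0.34 (SE, log2, unadjusted p = 0.247, adjusted p = 1 in limma). It was 0.10 without REST shRNA array 2. A dim second probe set, under the reference, was higher in each pair, at 0.30, 0.33 and 0.47. Unc5d, under the reference, read 2.11, 2.14 and 1.84 in control and 2.09, 2.27 and 2.16 in REST shRNA, a difference of 0.15 ± 0.15 with overlapping groups. The ligands Ntn1 and Ntn4 differed by -0.22 ± 0.28 and 0.00 ± 0.25. Ntn3 gave 0.14 ± 0.26, Unc5a 0.03 ± 0.16 and Unc5c -0.22 ± 0.28. A second probe set of Unc5c, above the reference, gave -0.88 (95% CI -1.90 to 0.13), an interval that includes a 2-fold change. Dcc, the attractive netrin receptor, differed by 0.10 ± 0.23, while its other 2 probe sets gave -0.39 and -0.30. The median of the system, 0.06, became -0.030 when control array 1 was left out, and -0.065 when REST shRNA array 3 was.

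**Figure D2:**
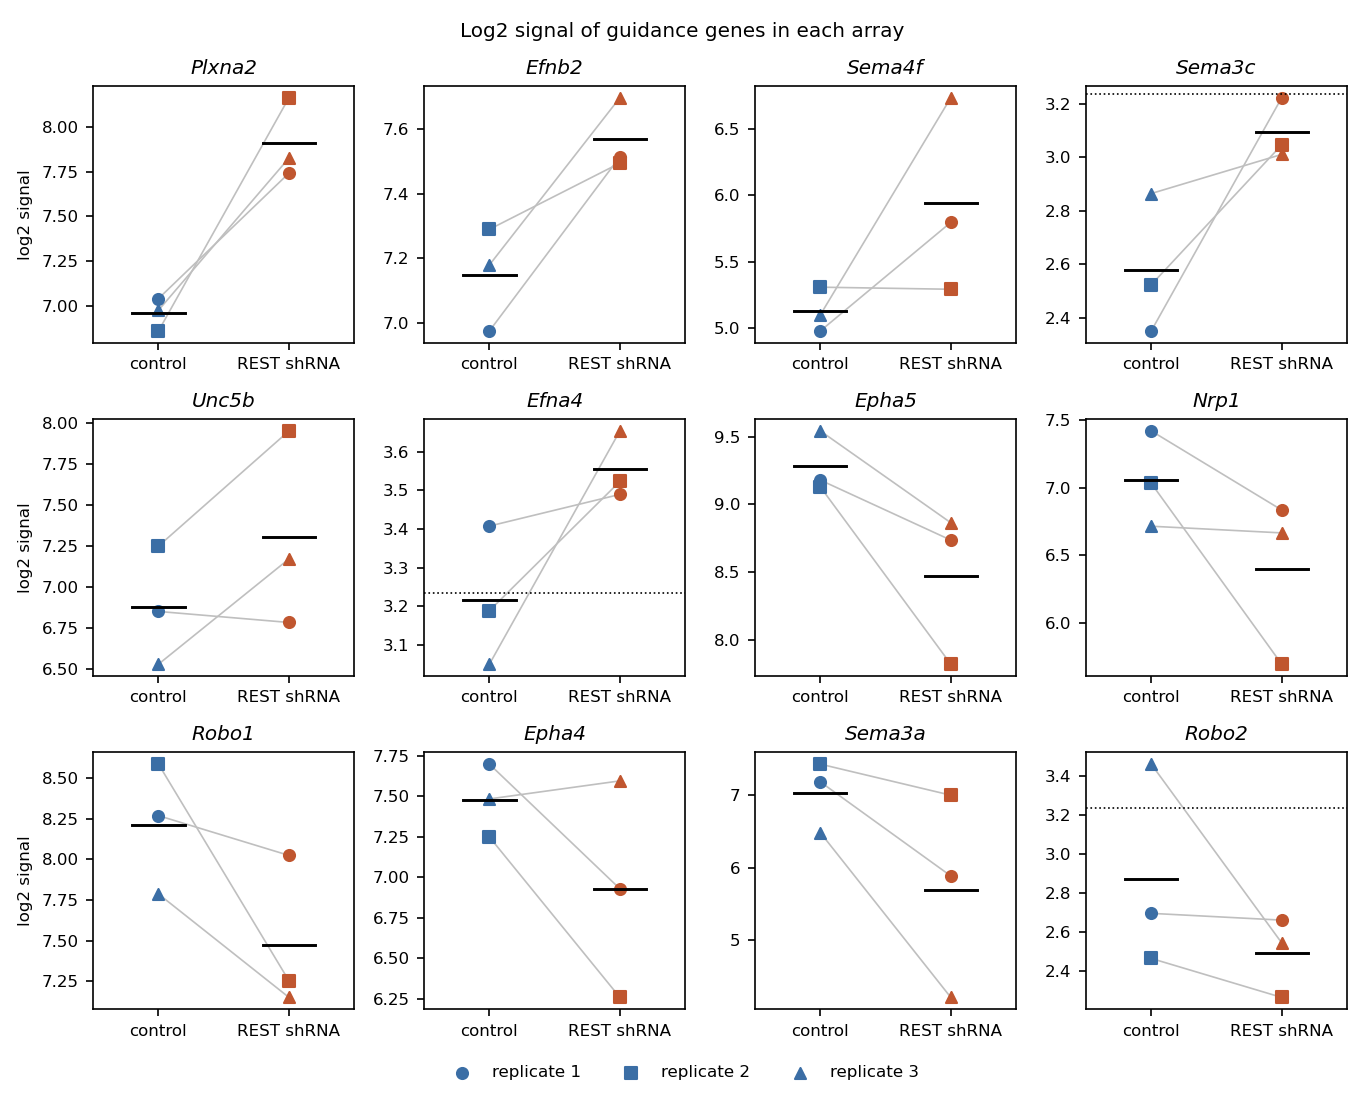
Log2 signal (y axis, a separate scale for each gene) of 12 guidance genes in the control and REST shRNA arrays. Symbols give the replicate number, grey lines join arrays of the same number, black bars are group means, and the dotted line is the bacterial reference of 3.24 where it falls in range. For Plxna2, Efnb2, Sema3c and Efna4 all REST shRNA arrays lie above all control arrays, and for Epha5 all lie below.

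Several probe sets read the same gene on one array. They share the RNA and are not replicates, but they show whether a difference rests on 1 set of probes. Of the 66 genes 45 had more than 1 probe set, and for 36 of these all probe sets had the sign of the brightest. The 9 exceptions were Dcc, Epha7, Nrp2, Ntn4, Robo3, Sema4d, Sema6a, Sema6c and Sema6d, and in 7 of them a probe set above the reference had the opposite sign. Plxna2 and Efnb2 had 4 probe sets each, all positive in all 3 pairs. Epha5, with 4, was negative in all probe sets and pairs.

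**Figure D3:**
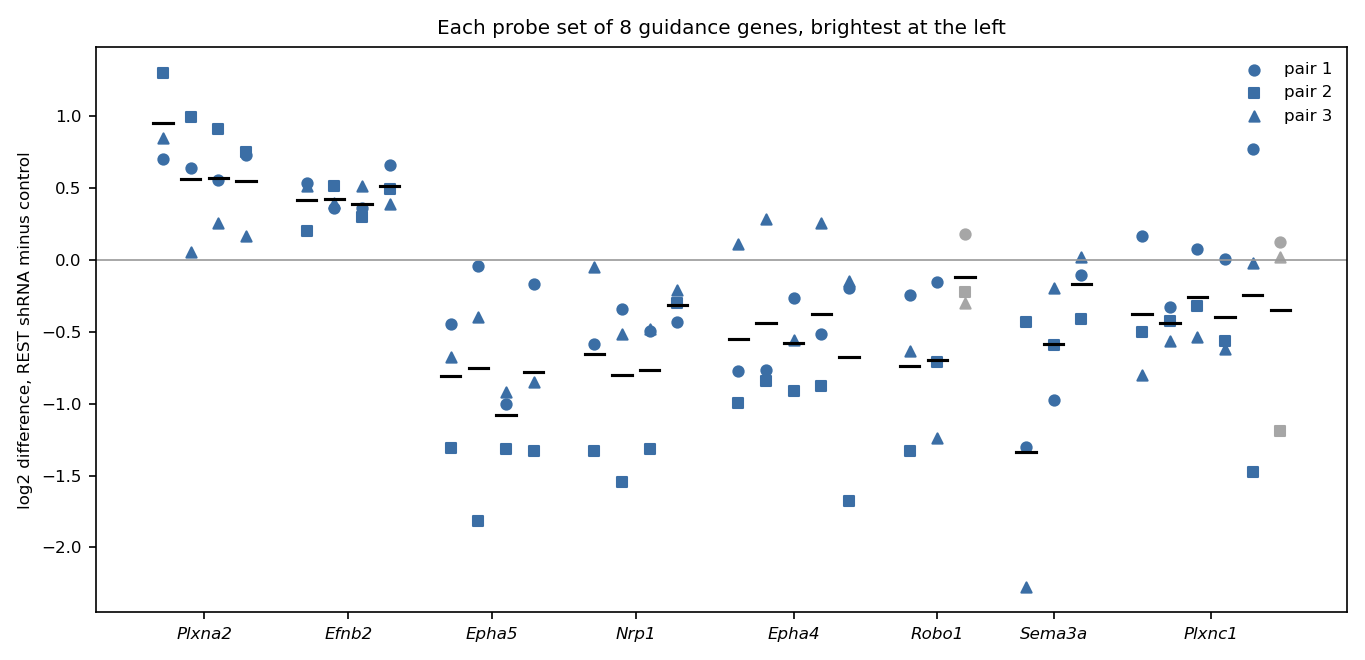
Log2 difference (REST shRNA minus control, y axis) of each probe set of 8 guidance genes, brightest at the left of each gene. Symbols mark the 3 pairs, each of 1 control and 1 REST shRNA array of like number, black bars the mean difference, and grey symbols probe sets not above the bacterial reference. All symbols of Plxna2 and Efnb2 lie above 0 and all of Epha5 below it, with pair 2 lowest for most probe sets of Epha5, Nrp1 and Epha4.

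The REST shRNA arrays differed among themselves more than the control arrays did. The SD was larger in REST shRNA for 52 of the 66 genes (78.8%, beside 66.6% of all genes), with a median SD of 0.36 against 0.20 in control, beside 0.28 against 0.19 over all genes. Array 2 of REST shRNA lay below all controls for 31 guidance genes (47.0%, beside 32.2% of all genes), and array 3 lay above all controls for 38 (57.6%, beside 37.8%). For 33 genes (50%, beside 32.3% of all genes) the difference was negative in pair 2 and positive in pair 3, and 8 showed the reverse. The sign was the same in all 3 pairs for 10 positive genes (15.2%, beside 13.6% of all genes) and 7 negative ones (10.6%, beside 8.77%). The positive ones were Plxna2, Efnb2, Efna4, Efna5, Efnb1, Sema3c, Sema6c, Sema7a, Slit1 and Robo3, and the negative ones Epha5, Nrp1, Sema3a, Sema3d, Robo1, Robo2 and Slit3.

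**Figure D4:**
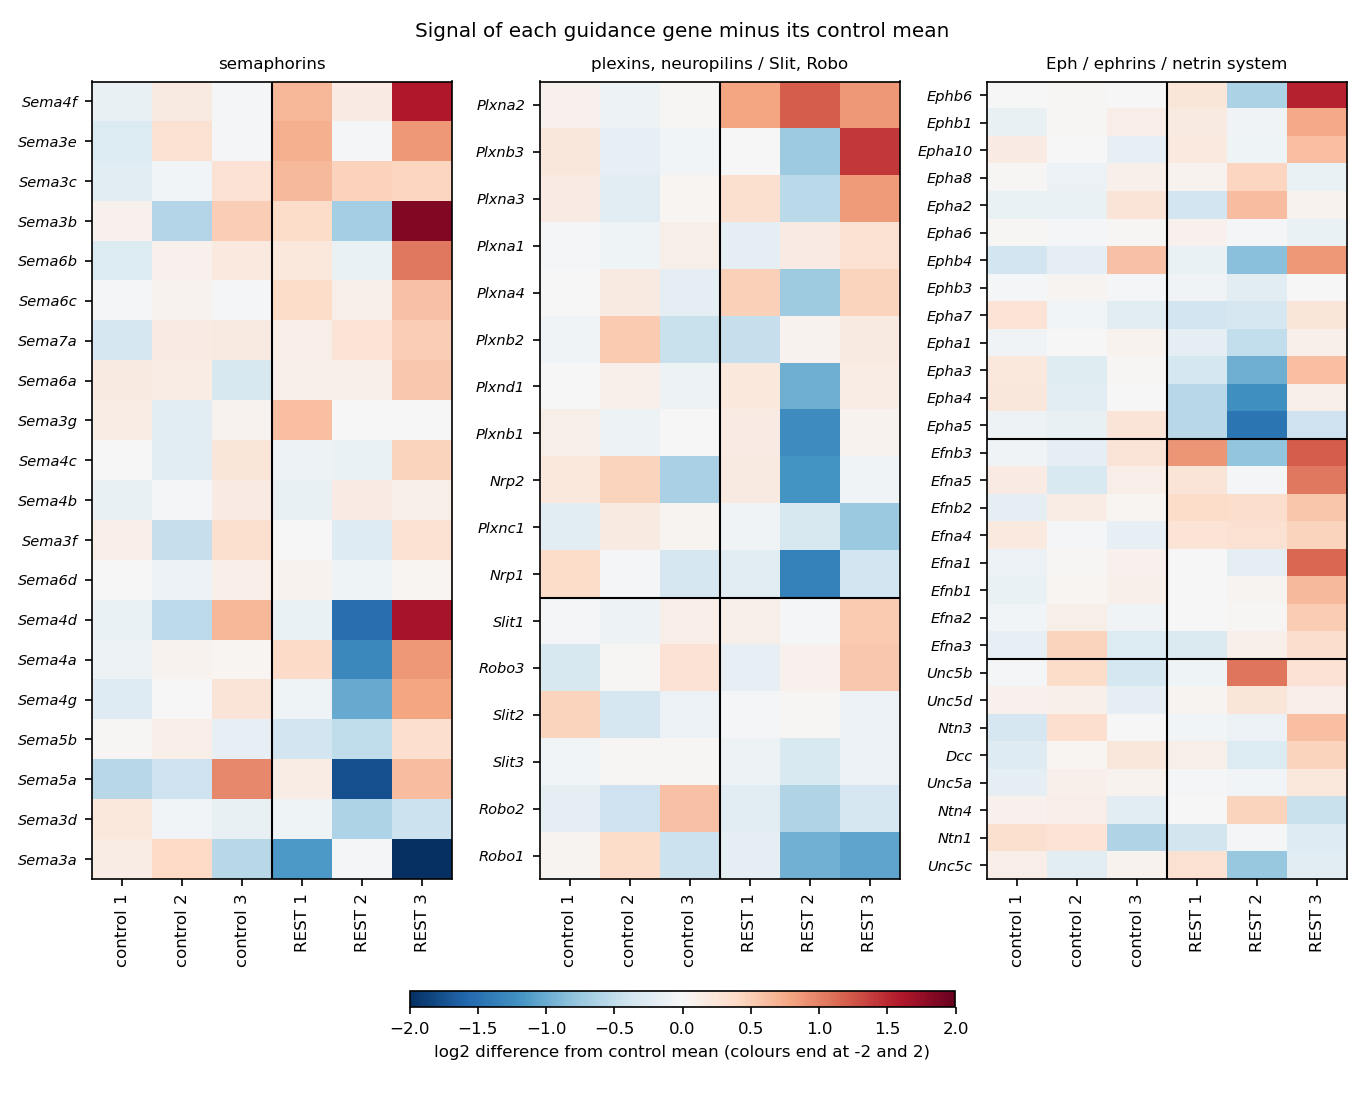
Signal of each of the 66 guidance genes in each array minus the gene's control mean (colour, log2, with colours ending at -2 and 2). Columns are the 3 control and 3 REST shRNA arrays, and black lines separate groups and families. REST shRNA array 2 is mostly blue for the neuropilins, Plxnb1, Epha4 and Epha5, and array 3 is mostly red for ephrins and semaphorins, with Sema3a and Robo1 blue.

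Promoter sequence was set beside these values, since REST acts through RE1 elements in DNA. RefSeq promoters of build GRCm38.p6 were at hand for 56 of the 66 genes, 72 promoters in all, and the 250 bases before each start were searched on both strands. The left part of RE1, TTCAGCACC, was in 0 of the 72, beside 0.301% of all 32851 promoters of the table. Only exact letters were searched, so a left part with changed letters was not counted. The right part, GGACAGNGC, was in 2 (2.78%, beside 1.52%), at Robo2 and at Sema4c, and not in the other promoters of these genes. Both matches lie before an alternative start and inside the annotated span of the gene. The Robo2 window also holds AGCACC, the last letters of the left part, shortly before its match. How frequent such partial left parts are among promoters was not tested. These windows with the match in capitals, 5′ to 3′ on the gene's strand, lie at chr16:75447343-75447371 and chr1:36557761-36557789, both on the minus strand:
Robo2: ttagcaccacGGACAGAGCactaaaacct
Sema4c: ctgggggtacGGACAGCGCtaggggcagt

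Neither gene stood out in the arrays, with Sema4c at 0.07 ± 0.22 (SE, log2) and Robo2 at -0.38 ± 0.28 under the reference. A window of this length does not cover distant elements, so no match says nothing of the factor. The GC box GGGCGG, the core of the site of general factors such as Sp1, was searched after the values were seen. It was in 53 of the 72 promoters (73.6%, beside 32.7% of all promoters), and guidance promoters also had a median GC content of 64.4%, beside 52.4%. The 2 genes above background whose signal was higher in every REST shRNA array and by unadjusted p are shown with their GC boxes in capitals, 5′ to 3′. For Plxna2 these are 212 bases before the annotated gene, chr1:194619579-194619790 on the plus strand, and for Efnb2 250 bases, chr8:8661243-8661492 on the minus strand:
Plxna2: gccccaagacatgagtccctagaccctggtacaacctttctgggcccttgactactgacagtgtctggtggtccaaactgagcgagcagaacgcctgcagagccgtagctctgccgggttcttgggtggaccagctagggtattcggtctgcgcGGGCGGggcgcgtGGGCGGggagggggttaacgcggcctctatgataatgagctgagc
Efnb2: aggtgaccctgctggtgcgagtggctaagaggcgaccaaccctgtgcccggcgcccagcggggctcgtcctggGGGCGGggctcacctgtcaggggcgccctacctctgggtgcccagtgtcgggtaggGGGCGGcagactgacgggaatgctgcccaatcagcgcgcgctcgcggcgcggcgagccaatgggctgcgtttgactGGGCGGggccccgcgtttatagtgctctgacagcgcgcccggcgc

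Plxna2 holds 2 GC boxes in this stretch and Efnb2 holds 3. Neither holds an exact match to the left or the right part of RE1. Efnb2 also holds the TATA motif TATAAA, as its reverse complement, which was in 2 of the 72 promoters (2.78%, beside 12.4% of all) and was likewise searched after the values were seen.

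The pathway was widened to its other parts with 2 lists, which were chosen with earlier results of these data known. Their counts are therefore not independent of those results. Of 34 further guidance cues, receptors and co-receptors, 3 were higher and 0 lower at an unadjusted p under 0.05 (beside 1.78% and 1.07% of all genes), and the list median was -0.05. The groups did not overlap for 3 higher genes and 3 lower ones (beside 4.91% and 2.65% of all genes), the lower ones being Nrcam at -0.50 ± 0.21 (SE, log2), Flrt2 at -0.47 ± 0.21 and Vangl2 at -0.18 ± 0.13, and 1 gene was lower in the blocked fit. The 3 higher ones were Celsr3, Islr2 and L1cam. Celsr3, a cadherin needed for long axon tracts, read 6.21, 5.76 and 6.06 in control and 7.23, 8.08 and 8.02 in REST shRNA. Its groups lay far apart, at 3.41-fold (log2 difference 1.77 ± 0.27 SE, adjusted p = 0.658 in limma). L1cam, a cell adhesion molecule and co-receptor for Sema3a, read 2.93-fold higher, with 3.59, 3.97 and 4.31 in control and 5.81, 4.39 and 6.33 in REST shRNA, so array 2 lay just above the controls. Islr2, a membrane protein of axons, read 1.47-fold higher. Of 52 measured genes for proteins that relay guidance signals inside the cell, 2 were higher and 0 lower by the same unadjusted threshold. Over all genes these shares were 1.78% and 1.07%, and the median of the list was 0.00. The groups did not overlap for 4 higher and 4 lower genes of the 52 (beside 4.91% and 2.65% of all genes). The lower ones were Enah, Rock1, Src and Pak2. The 2 higher by p were Crmp1 and Dpysl5, collapsin response mediators that act downstream of semaphorins, at 1.82-fold and 2.13-fold. Dpysl2, Dpysl3 and Dpysl4, of the same family, differed by only 0.02 ± 0.17 (SE, log2), 0.05 ± 0.19 and 0.03 ± 0.24. Enah, an actin regulator which had the smallest p of the list after Crmp1 and Dpysl5, differed by -0.38 ± 0.17 (SE, log2). None of these genes passed the adjusted threshold. The mean of the neuron marker list was higher in all 3 REST shRNA arrays than in any control array, with 11 of 14 members positive. The part of these markers in the values above was not tested.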

How the data were processed

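The deposited table holds log2 signals per probe set, as read from the range of its values, 1.00 to 14.2. How the authors corrected background, summarised probes and normalized arrays is not given in the sources used here. Sorted values of an array differed from the mean by 0.112 at most, so no scaling was added. Probe sets were named by the platform annotation: 34958 with 1 gene were used, 932 with several genes were not, and 9211 are unnamed here. Symbols were checked by gene number against RefSeq, GRCm38.p6, and 0 changed. The brightest probe set, by mean of the 6 arrays, represented its gene. One fit over 18194 genes used limma 3.58.1 (R 4.3.3; lmFit and eBayes, group as sole term, two-sided, Benjamini-Hochberg); adjusted p under 0.05 counts as called. The steps were tested on simulated data. Array values were given for genes with an unadjusted p under 0.05, or groups apart by 0.5 or more, and for the 2 smallest p per family; Sema3a and Sema6c, and single arrays of a few others, were added after their values were seen. Ephb2 was not analysed here. Members and lists were chosen with earlier results of these data known.

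Groups and numbers come from the sample titles. Deviations from group means correlated at 0.108, 0.365 and 0.504 in the pairs numbered 1, 2 and 3, so numbers were taken as pairs, that of number 1 weakly, since that control array had a higher correlation, 0.268, with REST shRNA array 2. Blocked values stand beside results they change. The other alternatives were scaling, a filter on dim genes, variance model, choice of probe set and leaving out arrays. Leaving out both arrays of a number was added after seeing the data.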

Additional observations from a re-analysis of the deposited data

How the results depend on the processing

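No gene and no guidance gene was called at the adjusted threshold in any of the 16 alternatives, including the replicate block (0 guidance genes, 0 of all genes). With the block, 3 guidance genes were higher and 3 lower at an unadjusted p under 0.05 (beside 2.24% and 1.42% of all genes). The differences of Rest and of the 13 guidance genes followed across settings kept their sign in every alternative that measured them. Those guidance genes were picked by their values in these same arrays, which favours a kept sign. Whether genes not so picked kept theirs was not tested. Counts of guidance genes at an unadjusted p under 0.05 ran from 1 to 10 (higher) and 0 to 4 (lower) when single arrays were left out, and those with groups apart from 5 to 17 and 3 to 8. Over all genes these shares ran from 0.962% to 4.22%, 0.550% to 1.96%, 7.76% to 14.1% and 4.50% to 7.62%. With quantile normalization, with each array centred on its median and with genes above the bacterial reference, the lower count by p was 1. Beside it, 1.10%, 0.819% and 0.940% of all genes in those fits were lower. The lower count with groups apart was 1 in the last 2 (beside 2.02% and 2.73%). It was 4 when a gene's probe sets were averaged (beside 2.97%). Without both arrays numbered 1, the counts were 1 higher and 1 lower by p (beside 1.37% and 0.720% of all genes). With groups apart they were 8 and 8 (beside 17.0% and 10.3% of all genes). Without both numbered 2 they were 8 higher by p, with 18 higher and 4 lower with groups apart, beside 2.77%, 20.9% and 10.9% of all genes, and a semaphorin median of 0.37. Without both numbered 3, 15 were lower with groups apart (beside 14.3% of all genes). Leaving out single arrays, the semaphorin median ran from -0.065 to 0.34, the ephrin median from 0.041 to 0.41 and the netrin system median from -0.065 to 0.10. The other medians ran from -0.25 to 0.12 (plexins and neuropilins), -0.20 to -0.02 (Eph receptors) and -0.18 to -0.09 (Slits and Robos). The Eph median was 0.01 with each array centred on its median, which moved the median of all genes from 0.04 to 0.08. The causes were not tested, though fewer arrays make groups apart more frequent. The 3 arrays a group limit the precision throughout.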
